A study of Mus musculus with 8 samples.

Results

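The 9 genes described here were those of the deposited count table named *Pvalb*, *Calb1*, *Calb2*, *Calm2*, *Calm3*, *Atp2b1*, *Atp2b2*, *Slc8a1* and *Slc8a2*, out of 23335 gene names, of which 16531 had a count. They encode parvalbumin, calbindin, calretinin, calmodulin (2 genes), 2 plasma membrane calcium pumps and 2 sodium-calcium exchangers. Each name was read from its transcript rows, and the rows of a name were added. A single row carried each gene except *Atp2b2*, which had 2. In the mm9 build *Pvalb* lies at chr15:78021548-78034586, *Calb1* at chr4:15808411-15833856, *Calb2* at chr8:112666438-112692106, *Calm2* at chr17:87832741-87846275 and *Calm3* at chr7:17500728-17509381. *Atp2b1* lies at chr10:98377786-98488777, the longer row of *Atp2b2* at chr6:113695662-113992074, *Slc8a1* at chr17:81772445-82137717 and *Slc8a2* at chr7:16715649-16745860.

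Neurons let calcium in during each action potential, bind most of it to mobile buffer proteins and then pump or exchange it back out across the plasma membrane. Parvalbumin is the slow buffer by which fast-spiking interneurons of the cortex are named, and calbindin and calretinin are its counterparts in other interneurons. Calmodulin is the sensor that passes the calcium signal on to enzymes and channels, and plasma membrane calcium ATPases and sodium-calcium exchangers remove the ion from the cell.

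Single labeled neurons of mouse frontal cortex were collected by hand as chandelier cells (ChC), whose synapses sit on the first stretch of the axons of pyramidal cells, or as Pv cells, the parvalbumin-expressing interneurons. ChC came from 2 *Nkx2.1*-CreER; Ai14 mice of postnatal days 31 and 32, given tamoxifen at embryonic day 17.5, and Pv cells came from 2 *Pv*-ires-Cre; Ai14 mice of postnatal days 29 and 35. Ai14 is a red fluorescent reporter that Cre switches on, all 4 mice were labeled female, and the sample labels repeat the tamoxifen text of the first line for the Pv samples. Every mouse gave 2 library batches of 16 cells: batches 1 and 2 were from animal 1, batches 3 and 4 from animal 2, batches 5 and 6 from animal 3, and batches 7 and 8 from animal 4.

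In the Pv line the *Pvalb* gene itself drives Cre, so these cells were chosen by the activity of one of the 9 genes. In the ChC line the time of tamoxifen sets which *Nkx2.1*-lineage cells are labeled. Each cell type had its own mouse line and its own flow cell, so that in any comparison of ChC with Pv the line and the flow cell cannot be told apart from the cell type. Within each flow cell, lane 1 held the first animal of the type and lane 2 the other, so lane and animal cannot be told apart either.

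Counts were of unique molecular tags (UMI), so within a transcript row a molecule was counted once however often it was amplified. Rows were added for the 2641 gene names with more than 1 row. A molecule shared by such rows therefore enters the totals and levels more than once, as seen below for *Atp2b2*. The extent of this in the other names was not examined. The UMI were not divided by transcript length. For this reason levels are compared between cells and batches, not between genes, except as shares of molecules within a family. Summed over cells, batches 1 to 4 (ChC) held 527743, 657957, 2898413 and 1307666 UMI, and the Pv batches 5 to 8 summed to 456458, 501563, 370238 and 921212. Among 63 cells of each type the median total was 39200 UMI for ChC and 27116 UMI for Pv, after 1 ChC and 1 Pv column without a count had been left out. Batch levels below are UMI per 1000000 of a batch, scaled between batches by the TMM method of edgeR, and are written as CPM.

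The labels were checked first against genes of inhibitory neurons. *Gad1* and *Gad2*, the enzymes that make GABA, had a UMI in 62 and 61 of 63 ChC and in 63 and 56 of 63 Pv cells. *Slc32a1*, which loads GABA into vesicles, had a UMI in all 126 cells, at 1878 ± 511 CPM (SD, n = 4 batches) in ChC and 1899 ± 860.1 CPM in Pv. Mean levels in ChC and Pv were 1023 and 1296 CPM for *Gad1* and 567 and 187 CPM for *Gad2*. Of the same list, *Sox6* had 597 and 593 CPM and *Lhx6* had 461 and 172 CPM. *Erbb4* had 3920 and 1511 CPM, and its batches did not overlap between the cell types. *Sst* and *Vip*, which define other interneuron classes, had 0 UMI in ChC, and in Pv cells *Vip* had 0 and *Sst* had a UMI in 1 of 63 cells. A count of 0 in 63 cells allows a share of up to 4.76% of cells with a UMI. Of 5 endothelial genes *Cldn5* had a UMI in no cell, whereas *Tek* had one in 33 ChC and 28 Pv cells, *Flt1* in 18 and 14, *Pecam1* in 16 and 8 and *Kdr* in 3 and 7.

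Some batches stood apart in genes of other cell types. *Adarb2*, a gene of interneurons from the caudal ganglionic eminence, reached 1428 CPM in batch 4 and between 10.3 and 107 CPM in the 7 other batches. Of the 7 genes of its list *Reln* (411 CPM) and *Cck* (292 CPM) also had a UMI in batch 4, and *Vip*, *Htr3a*, *Cnr1* and *Prox1* were at 0 there. *Slc17a7*, the vesicular glutamate transporter of pyramidal neurons, reached 250.5 CPM in batch 7, and *Slc1a2*, a glutamate transporter abundant in astrocytes, reached 899 CPM there. For this reason the levels and shares of the 9 genes are given per batch. The gene tests were repeated without each batch and each animal and the shares without each batch.

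*Pvalb* separated the cell types. Its level was 141, 173, 88.2 and 73.1 CPM in ChC batches 1 to 4 and 1494, 697, 483 and 996 CPM in Pv batches 5 to 8. All 4 Pv batches lay above all 4 ChC batches, with a mean of 917 ± 438 CPM in Pv and 119 ± 46.5 CPM in ChC (SD, n = 4 batches each), a ratio of 7.71. *Pvalb* was the 1 gene of the 9 whose batches did not overlap between the cell types, and of the 9829 genes that passed the filter on low counts 1.6% had Pv higher without overlap, 2.62% had ChC higher and 4.22% did either. Cre in the Pv line is driven from *Pvalb*, so the Pv cells were chosen by the activity of this gene and the ChC were not. The part of this choice in the difference was not tested.

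With the animals as samples, 2 against 2, the log2 fold change of *Pvalb* (ChC over Pv) was -2.99 (SE 0.63), and its adjusted p in edgeR's quasi-likelihood test was 0.598. No gene of the 9829 tested passed an adjusted p of 0.05 in that test, which is 0% of the genes, and 0 of the 8 calcium genes that passed the filter did. At an unadjusted p under 0.05 there were 616 genes (6.27%), and *Pvalb* was the 1 calcium gene among them. DESeq2 on the same counts called 150 genes (1.53%) and of the calcium genes *Pvalb* alone, with an adjusted p of 0.0254. Without the filter edgeR called 0.484% of 16531 genes, with *Pvalb* among them. Over batches edgeR called 0.0771% of 6481 genes, none of the calcium genes being among them, and limma-voom called 0.0926% and of the calcium genes *Pvalb*. In this edgeR fit both batches of a mouse were taken as independent. In limma-voom the animal was a random block, but the correlation fitted between batches of an animal was -0.0406. That fit too therefore took the batches of a mouse as nearly independent. The adjusted p of *Pvalb* ranged from 0.0133 to 0.889 over 20 alternatives, and its direction was the same in each of them. It was 0.0324 without animal 4, the 1 library or animal whose absence made the call. The number of genes called was 17, 51, 7 and 100 without animals 1 to 4 in turn, 1 without batch 7 and 0 without any other single batch.

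Cell by cell, *Pvalb* ranged up to 264 CPM in all 63 ChC and down to 226 CPM in all 63 Pv cells, so that the cell types overlapped slightly. Over the cells with at least 10000 UMI, *Pvalb* ranged from 0 to 235 CPM in 49 ChC, with a median of 101, and from 264 to 1676 CPM in 59 Pv cells, with a median of 926. No ChC of this depth reached the lowest Pv cell. A *Pvalb* UMI was found in 52 of 63 ChC, or 82.5% (exact 95% interval 70.9 to 90.9%), and in 63 of 63 Pv cells. After each cell was thinned to 10000 UMI, the counts were 32 of 49 ChC and 58 of 59 Pv cells, with 14 ChC and 4 Pv cells too shallow to be used. Thinned to 5000 UMI, 27 of 58 ChC (46.6%) and 59 of 61 Pv cells held one. Without thinning, at least 3 UMI were found in 61.9% of 63 ChC and 96.8% of 63 Pv cells.

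**Figure D1:**
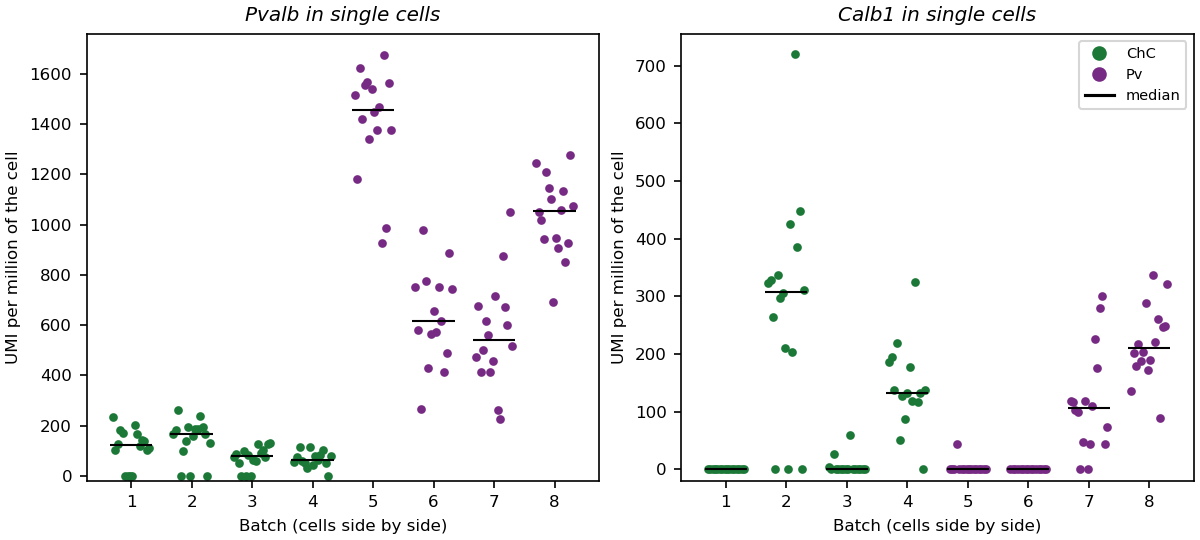
UMI per 1000000 of each cell (vertical axis) for *Pvalb* and *Calb1* in the 126 cells, side by side within batches 1 to 4 (ChC, green) and 5 to 8 (Pv, purple), with the batch median as a line. *Pvalb* reaches 264 in ChC and falls to 226 in Pv over all cells, whereas *Calb1* is present in nearly all cells of batches 2, 4, 7 and 8 and in 4 cells of the other batches.

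*Calb1*, the fast buffer calbindin, differed between batches within each cell type and did not separate the cell types. It held 0, 212, 3 and 207 UMI in ChC batches 1 to 4 and 1, 0, 41 and 203 UMI in Pv batches 5 to 8. In CPM these counts were 0, 337, 0.995 and 156 in ChC and 2.32, 0, 93.4 and 208 in Pv. Each cell type thus had a pair of batches with *Calb1* and a pair nearly without it, and the cell types overlapped, with ChC batch 2 above all Pv batches.

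In ChC the contrast lay between batches of the same mouse, and in Pv it lay between the mice. In animal 1, *Calb1* had a UMI in 0 of 16 cells of batch 1 and 13 of 16 cells of batch 2, a level at least 52.7-fold higher than the 3 counts that a count of 0 allows in batch 1. In animal 2 it had a UMI in 3 of 16 cells of batch 3 and 14 of 15 cells of batch 4, a ratio of 157 (exact 95% counting interval 52.9 to 766). Batch 3 had the most UMI of all 8 batches. In animal 3 the gene had a UMI in 1 of 16 and 0 of 15 cells, and in animal 4 in 14 of 16 and 16 of 16 cells, with a ratio of 2.23 (1.59 to 3.20) between batches 8 and 7.

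Such on and off pairs were frequent in the whole table. A pair was defined, after these values had been seen, as a gene with a UMI in at least 75% of the cells of 1 batch and at most 25% of the cells of the other batch of the same animal. The definition took 8.17% of the 9829 genes in animal 1, 7.9% in animal 2, 13.8% in animal 3 and 13.3% in animal 4, and 34.9% of the genes in at least 1 animal. Of the calcium genes, *Calb1* met it in animals 1 and 2 and *Slc8a2* in animal 1, which is 2 of 8.

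Markers of other cell types are set beside *Calb1* for each batch. The 6 pyramidal neuron markers summed to 10.7, 47.7, 4.31 and 85.1 CPM in batches 1 to 4 and to 11.6, 2.12, 282 and 25.7 CPM in batches 5 to 8. *Slc17a7* led them with 0, 42.97, 0 and 73.1 CPM in ChC and 6.95, 0, 250.5 and 21.6 CPM in Pv, and between 1 and 3 of the 6 had a UMI in a batch. *Slc17a6*, *Neurod6* and *Tbr1*, other defining genes of pyramidal neurons, were at 0 in all 8 batches.

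The astrocyte markers, led by *Slc1a2*, summed to 55.5, 447, 297 and 914 CPM in ChC and 39.4, 14.8, 1066 and 197 CPM in Pv, with *Gfap* at 0 throughout and between 2 and 5 of 6 genes with a UMI. The somatostatin interneuron markers summed to 70.4, 164, 51.8 and 412 CPM in ChC and 39.4, 21.2, 25.05 and 459 CPM in Pv. *Elfn1* had the highest level of those 5 in batches 1, 2, 3, 5, 6 and 7 (70.4, 84.3, 50.8, 34.8, 21.2 and 20.5 CPM) and *Npy* in batches 4 and 8. *Npy* had 0, 44, 2 and 466 UMI in batches 1 to 4 and 0, 0, 0 and 444 UMI in batches 5 to 8, whereas *Sst* had 1 UMI in all and *Chodl* had 0. The part of these markers in the level of *Calb1* was not tested.

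In edgeR's test over animals *Calb1* had a log2 fold change of 0.46 (SE 1.63) and an adjusted p of 0.999. Leaving out single batches moved it between -1.76 (without batch 2) and 1.39 (without batch 8), and it was 6.64 without animal 4. No direction can be given between ChC and Pv for this gene.

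*Calb2*, which encodes calretinin, the buffer of bipolar interneurons, had 2 UMI in all. It had 1 UMI in batch 2 and 1 in batch 7, and it did not pass the filter. By cell type that is 1 of 63 cells in each, or 1.59% (0.0402 to 8.53%), the same share as that of *Sst* in Pv cells. No cell held more than 1 UMI of it.

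The calmodulin genes were in nearly every cell. *Calm2* had a UMI in 126 of 126 cells and *Calm3* in 124. The level of *Calm2* was 2228, 1090.1, 1183 and 1095 CPM in ChC batches 1 to 4 and 1471, 2481, 424 and 1367 CPM in Pv batches 5 to 8. *Calm3* had 698, 1517, 281 and 813 CPM in ChC and 669.5, 974, 613 and 1544 CPM in Pv. For both genes the cell types overlapped, and batches of one animal differed by up to 3.23-fold for *Calm2* (animal 4) and 2.89-fold for *Calm3* (animal 2).

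The means of *Calm2* were 1399 ± 555 CPM in ChC and 1436 ± 841 CPM in Pv, and those of *Calm3* were 827 ± 513 and 949.9 ± 426 CPM (SD, n = 4 batches). The log2 fold changes over animals were -0.18 (SE 0.49) for *Calm2* and -0.38 (SE 0.59) for *Calm3*, with adjusted p of 0.996 and 0.991 in edgeR's test. Neither sign was stable, since leaving out animal 3 gave 0.39 for *Calm2* and leaving out batch 8 gave 0.15 for *Calm3*.

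Both genes encode the same protein, and the balance between them is a share of molecules that needs no scaling. *Calm2* made up 76.1, 41.8, 80.8 and 57.4% of the UMI of *Calm2* and *Calm3* in ChC batches and 68.7, 71.8, 40.9 and 46.97% in Pv batches. The mean was 64.04 ± 17.9% in ChC and 57.1 ± 15.5% in Pv, a difference of 6.94 percentage points (two-sided exact permutation over 8 batches, p = 0.571, adjusted over 5 shares 0.714). In animal 1 the exact 95% intervals of batch 1 (73.8 to 78.4%) and batch 2 (39.4 to 44.3%) did not overlap, nor did those of batches 3 (79.6 to 81.96%) and 4 (55.4 to 59.3%) in animal 2. They overlapped in animal 3, between batches 5 (65.6 to 71.7%) and 6 (69.6 to 73.99%), and in animal 4, between batches 7 (36.3 to 45.6%) and 8 (45.1 to 48.8%). The difference of 6.94 points lay between 1.36 (without batch 3) and 14.3 (without batch 2) when single batches were left out.

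The coding sequences of these genes differ in synonymous codons, as shown for the 30 coding bases that encode the start of the first calcium-binding loop, bases 61 to 90 of a coding sequence of 450 bases. They are read from the GENCODE transcripts of NCBIM37, the same build as mm9, and capitals mark the 7 bases at which the genes differ.
Calm2, chr17:87835219-87835248, minus strand: gacaaggaCggGgatggGacAatAacAacA
Calm3, chr7:17503022-17503051, minus strand: gacaaggaTggAgatggCacCatTacCacC
Over the coding sequence *Calm2* was identical to *Calm3* at 82.7% of bases, and the longest run shared by their transcripts was 17 bases. For *Atp2b1* and *Atp2b2* it was 20 bases, for *Slc8a1* and *Slc8a2* 26 and for *Calb1* and *Calb2* 12.

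**Figure D2:**
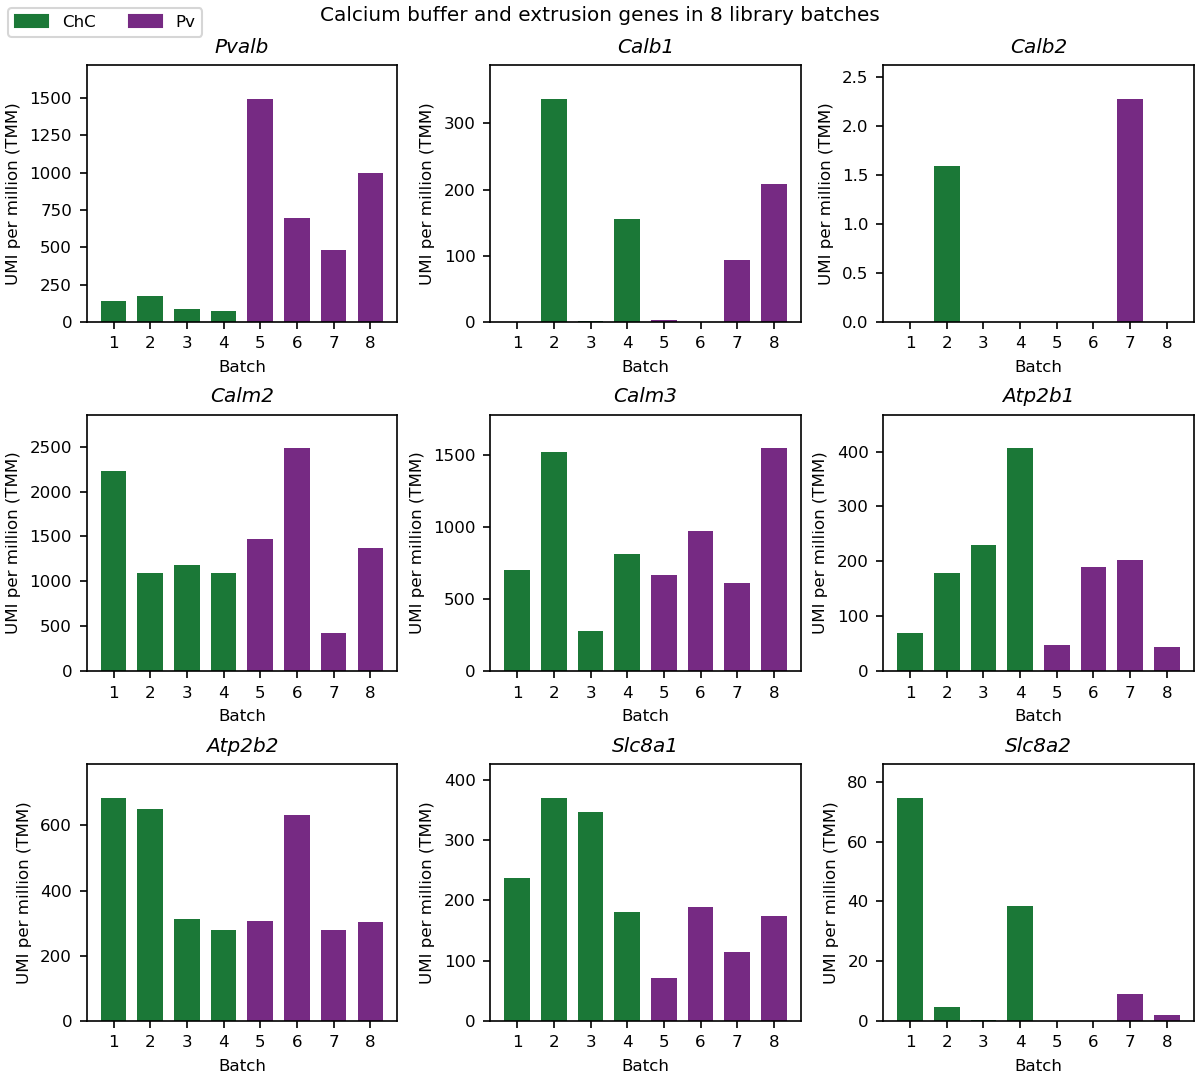
Level of each of the 9 genes in UMI per 1000000 with TMM scaling (vertical axis) in batches 1 to 4 (ChC, green) and 5 to 8 (Pv, purple), 1 bar per batch on an axis of its own for each gene. *Pvalb* lies between 73.1 and 173 in ChC and between 483 and 1494 in Pv, and the bars of the other genes overlap between the cell types.

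The plasma membrane calcium pumps bind calmodulin and drive calcium out with ATP, *Atp2b1* in most tissues and *Atp2b2* chiefly in neurons and sensory cells. *Atp2b1* had 70.4, 178, 230.2 and 406 CPM in ChC batches and 48.7, 191, 203 and 44.1 CPM in Pv batches. *Atp2b2* had 685, 651, 312 and 279 CPM in ChC and 306, 633, 280.1 and 304 CPM in Pv. The ranges overlapped for both genes. A UMI was found in 53 of 63 ChC and 51 of 63 Pv cells for *Atp2b1* and in 57 and 61 cells for *Atp2b2*. After thinning to 10000 UMI, 38 of 49 ChC and 30 of 59 Pv cells had one for *Atp2b1*.

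The 2 *Atp2b2* rows share molecules: in no cell was the count of the lower row (1274 UMI in all) above that of the higher (1616 UMI), and in 43 cells with a UMI they were equal. Adding the rows therefore counts some *Atp2b2* molecules more than once. Mean levels were 221 ± 140.0 CPM in ChC and 121 ± 86.9 CPM in Pv for *Atp2b1*, and 482 ± 216 and 381 ± 169 CPM for *Atp2b2* (SD, n = 4 batches). The log2 fold changes were 0.96 (SE 0.83) and 0.31 (SE 0.65), with adjusted p of 0.976 and 0.992 in edgeR's test. For *Atp2b1* the value was 0.25 without animal 2, 0.40 without batch 8 and 1.53 without batch 6. For *Atp2b2* the sign turned without animal 1 (-0.31) and without animal 4 (-0.02).

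The share of *Atp2b1* in the UMI of both pumps was 9.32, 21.5, 42.5 and 59.3% in ChC batches and 13.7, 23.1, 41.98 and 12.7% in Pv batches. These shares use the sum of the *Atp2b2* rows, and with the row of most UMI alone the means were 45.2% in ChC and 32.99% in Pv. With the rows added the mean was 33.1 ± 22.2% in ChC and 22.9 ± 13.6% in Pv, a difference of 10.3 percentage points (two-sided exact permutation over 8 batches, p = 0.514, adjusted 0.714). It was 1.55 points without batch 4 and 18.2 points without batch 1. Both ChC batches of animal 2 lay above both of animal 1, and in animal 4 the share of batch 7 was more than 3 times that of batch 8.

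The other pumps of the family depended on single batches. *Atp2b3*, a pump restricted to the nervous system, had 546 CPM in batch 1, 25.5, 18.6 and 6.78 CPM in the 3 other ChC batches, and between 0 and 18.2 CPM in Pv. In batch 1 it had a UMI in 14 of 16 cells, and in batch 2 of the same mouse in 6 of 16. *Atp2b4* had 29 of its 43 UMI in batch 7 and did not pass the filter. Batch 7 also had the highest levels of *Slc17a7* and *Slc1a2*, and any link of these to *Atp2b4* was not tested.

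Sodium-calcium exchangers remove calcium at high capacity, using the sodium gradient. *Slc8a1* had 237, 371, 348 and 180.1 CPM in ChC batches 1 to 4 and 71.8, 188, 114 and 174 CPM in Pv batches 5 to 8. Only ChC batch 4 reached into the Pv range, lying below Pv batch 6. The mean was 284 ± 90.6 CPM in ChC and 137 ± 54.3 CPM in Pv (SD, n = 4 batches), a ratio of 2.07.

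The log2 fold change of *Slc8a1* was 1.08 (SE 0.69) with an adjusted p of 0.915 in edgeR's test. It was above 0 in all 20 alternatives, between 0.79 and 1.40, with adjusted p from 0.64 up, so no alternative called it. With the median over the cells of a batch in place of the sum, the lowest ChC batch (188 CPM) lay above the highest Pv batch (186 CPM). By that measure 2 of the 9 genes did not overlap, against 3.08% of all genes tested, and 1.82% had ChC above. After thinning to 10000 UMI, 46 of 49 ChC and 45 of 59 Pv cells had a *Slc8a1* UMI.

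*Slc8a2*, an exchanger of the brain, was seen mainly in ChC, and there mainly in 1 batch of each mouse. It had 35, 3, 1 and 51 UMI in ChC batches 1 to 4 and 0, 0, 4 and 2 UMI in Pv batches 5 to 8, or 74.7, 4.77, 0.332 and 38.4 CPM and 0, 0, 9.11 and 2.05 CPM. The ranges overlapped. It had a UMI in 13, 3, 1 and 11 cells of the ChC batches and in 0, 0, 2 and 2 cells of the Pv batches, so that 28 of 63 ChC and 4 of 63 Pv cells carried it. Batches 1 and 2 of animal 1 differed by a ratio of 15.6 (exact 95% counting interval 4.93 to 79.5).

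The mean level of *Slc8a2* was 29.6 ± 34.6 CPM in ChC and 2.79 ± 4.32 CPM in Pv (SD, n = 4 batches). Its log2 fold change was 3.32 (SE 1.79), with an adjusted p of 0.878 in edgeR's test. It was 2.45 without animal 1 and 8.57 without animal 4, and without batch 1 or batch 4 the gene did not pass the filter. Animal 3, the Pv animal left without animal 4, held 0 UMI of *Slc8a2*, so 8.57 is not a measured ratio. The value of 3.32 rests on few molecules, 96 UMI in all. After thinning to 10000 UMI, 9 of 49 ChC and 0 of 59 Pv cells held one. At full depth 55 of the same 59 Pv cells were at 0, so the count after thinning sets no limit on the share of cells. *Slc8a3*, the exchanger not among the 9, had 34.1, 124, 134 and 83.6 CPM in ChC and 4.63, 12.7, 2.28 and 68.8 CPM in Pv, with batch 8 alone in Pv above the lowest ChC batch.

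*Slc8a1* made up 76.0, 98.7, 99.9 and 82.4% of the UMI of *Slc8a1* and *Slc8a2* in ChC batches and 100, 100, 92.6 and 98.8% in Pv batches. The mean was 89.3 ± 11.9% in ChC and 97.9 ± 3.55% in Pv, a difference of -8.59 percentage points (two-sided exact permutation over 8 batches, p = 0.2, adjusted 0.714). The difference was -4.18 points without batch 1 and -12.1 points without batch 3. Batches 1 and 4 were the low ones and the others overlapped. With *Slc8a3* included, *Slc8a1* made up 68.6 ± 6.45% in ChC (59.6 to 74.2%) and 87.4 ± 10.9% in Pv (71.1 to 93.9%), where the ranges overlapped and no test was made.

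Among the 3 buffer genes, *Pvalb* made up 100, 33.9, 98.9 and 31.9% of UMI in ChC batches and 99.8, 100, 83.5 and 82.7% in Pv batches. The mean was 66.2 ± 38.4% in ChC and 91.5 ± 9.73% in Pv, a difference of -25.3 percentage points (two-sided exact permutation over 8 batches, p = 0.343, adjusted 0.714). The difference was -13.9 points without batch 4, -14.6 points without batch 2 and -36.6 points without batch 1. The low shares were those of batches 2 and 4, and *Calb1* had more UMI than *Pvalb* there and in no other batch. The share of *Calb1* in *Calb1* and *Calb2* exists for 3 ChC and 3 Pv batches, since batches 1 and 6 held neither gene. It was 99.8 ± 0.271% in ChC and 99.2 ± 1.37% in Pv, a difference of 0.637 percentage points (two-sided exact permutation over 6 batches, p = 1, adjusted 1). *Calb2* had 2 UMI in all, and the shares of batches 3 and 5 rest on 3 UMI and 1 UMI, so this share carries no information on the cell types. With 4 batches against 4 the smallest p that permutations can give is 0.0286, and with 3 against 3 it is 0.1. These permutations treat both batches of a mouse as independent. With animals as samples the smallest p of the 5 shares was 0.333, and no smaller one can be had from 2 animals against 2.

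**Figure D3:**
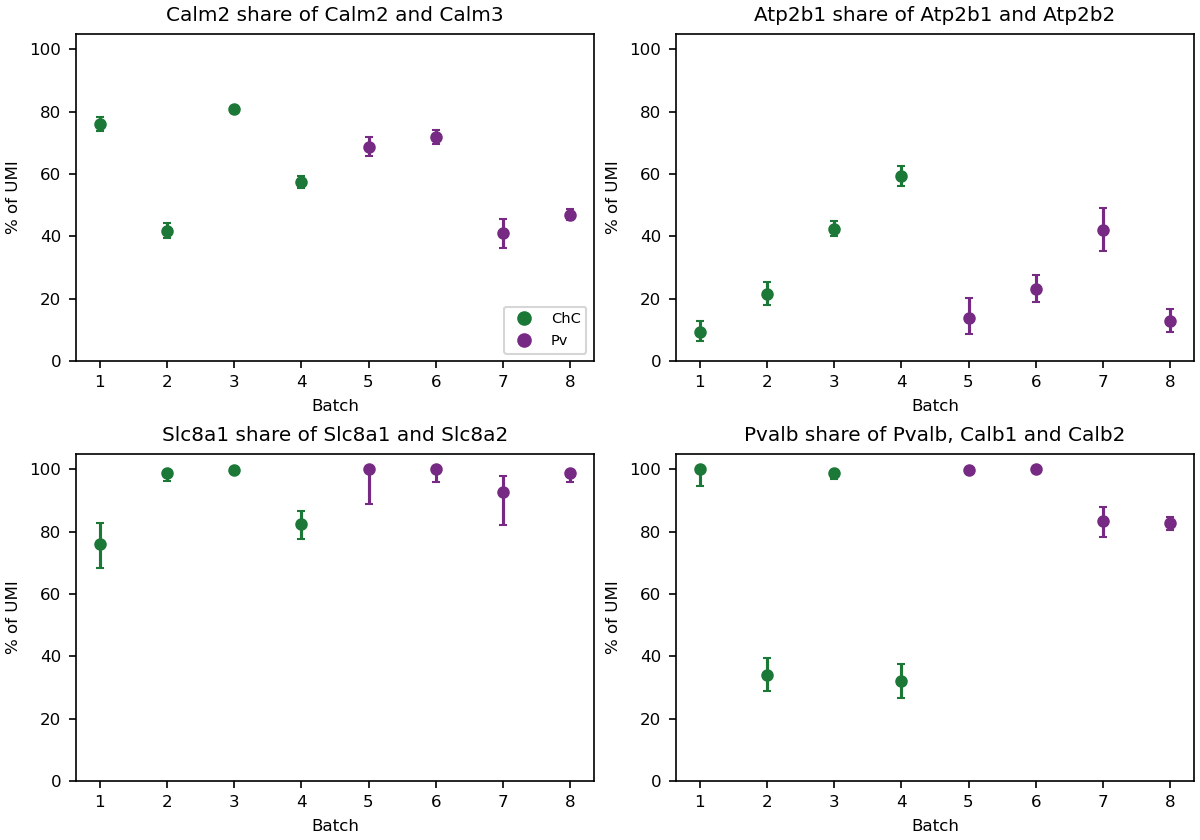
Share of UMI (%, vertical axis) within 4 families in batches 1 to 4 (ChC, green) and 5 to 8 (Pv, purple), with exact 95% intervals for counting error. The *Pvalb* share is 33.9% and 31.9% in ChC batches 2 and 4 and at least 82.7% in the 6 other batches.

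Differences between batches of one mouse were set beside those of all genes. Over genes with at least 100 UMI in both batches, the median ratio of the higher to the lower batch was 1.55, 1.68, 1.49 and 1.67 in animals 1 to 4. For the calcium genes no such limit was set, and the lower batch held as few as 21 UMI of *Atp2b1*, 31 of *Slc8a1* and 66 of *Pvalb*, so both sets of ratios differ in counting error. The median over the 4 animals was 1.65 for *Pvalb*, 1.87 for *Calm2*, 2.35 for *Calm3*, 3.22 for *Atp2b1*, 1.10 for *Atp2b2* and 1.75 for *Slc8a1*. *Atp2b2* had the lowest of these medians, with 2.07-fold in animal 3, and *Atp2b1* differed by at least 1.76-fold in each animal.

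The spread between the cells of a batch was compared with counting error. For each gene and batch a chi-square, set against the totals of the single cells, was divided by its degrees of freedom. The result is near 1 where molecules fall on cells in proportion to depth alone. Over all genes with at least 100 UMI in a batch, with rows added, its median lay between 1.09 and 1.58 in the 8 batches. For *Pvalb* it was between 0.376 and 1.72 in 6 batches, for *Calb1* between 0.764 and 1.38 in 3 and for *Slc8a1* between 0.762 and 1.65 in 5. *Calm2* and *Calm3* reached 2.31 and 2.74, and *Atp2b2*, whose rows count molecules more than once, lay between 1.57 and 3.25.

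The number of cells with a UMI was set beside depth. If the UMI of each batch had fallen on its cells in proportion to their totals, 117 cells in all would have held a *Pvalb* UMI, and 115 did. For *Calb1* the numbers were 62.04 and 61, for *Slc8a2* 32.5 and 32, for *Atp2b1* 109 and 104 and for *Atp2b2* 123 and 118. The 123 for *Atp2b2* rests on the sum of its rows, which counts some molecules more than once and so raises that number. This comparison was chosen after the values had been seen.

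The genes whose level was most like that of a calcium gene over the cells of a batch were named by the mean of 8 within-batch Spearman correlations, each compared with 2710 genes that had a UMI in 25% or more of each batch's cells. The cells of a batch share a library and depth differs between them, so these values are descriptions. *Pvalb* was most like *Rab6b* (0.403), *Ndufa2* (0.387) and *Ndufs4* (0.366), the latter 2 being subunits of respiratory complex I. *Calm2* was most like *Mdh2* (0.436), *Slc24a5* (0.352) and *Atp5d* (0.334), and *Calm3* was most like *Copg* (0.445), *Tuba1b* (0.346) and *Dclk1* (0.341).

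*Atp2b1* was most like *Mapre2* (0.4997), *Spock1* (0.398) and *Spin1* (0.388), *Atp2b2* was most like *Pfkm* (0.392), *Narfl* (0.367) and *Psma6* (0.345), and *Slc8a1* was most like *Fbxl13* (0.392), *Unc13b* (0.385) and *Lrrc17* (0.360). The median over all genes compared was between -0.016 for *Slc8a1* and 0.0563 for *Pvalb*. Single batches ranged widely, as from 0.0773 to 0.845 for *Atp2b1* and *Mapre2*. Among the calcium genes themselves, *Atp2b1* and *Atp2b2* had a mean of 0.308 and were above 0 in 8 of 8 batches, *Calm2* and *Atp2b1* had a mean of 0.259 (7 of 8), *Pvalb* and *Slc8a1* -0.178 (1 of 8) and *Calm2* and *Calm3* -0.152 (1 of 8). Over all pairs of 2711 genes the median was 0.0341 and the 95th percentile 0.205. These pairs were picked after their values were seen.

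Other genes of calcium handling were taken from 4 lists. Of 23 other EF-hand sensors and buffers, 16 passed the filter, and edgeR over animals called 0 in either direction. An unadjusted p under 0.05 in that test was found for 0 of them, beside 6.27% of all genes tested. DESeq2, edgeR without the filter or over batches, and limma-voom called 0 as well, and the median log2 fold change was -0.35 beside 0.04 for all genes. *Ncald* (neurocalcin) had 503 ± 343 CPM in ChC and 483 ± 403 CPM in Pv (SD, n = 4 batches). *Kcnip4*, a subunit of A-type potassium channels, had 3708 CPM in batch 4 and between 108 and 1063 CPM in the 7 others. *Necab1* had 1416 CPM in batch 2 and between 13.9 and 156 CPM elsewhere, and *Kcnip3* had 122 of its 134 UMI in batch 4.

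Of 10 other pumps, exchangers and partners, 7 passed the filter, edgeR over animals called 0, and the median was 0.54. An unadjusted p under 0.05 in that test was found for 2 of them, beside 6.27% of all genes tested. DESeq2 called 1 (*Atp2b3*), beside 1.53% of all genes, and edgeR without the filter called 1 (*Slc24a2*), beside 0.484%. Both edgeR over batches and limma-voom called 0. *Slc24a2*, a potassium-dependent sodium-calcium exchanger, had 184, 891, 167 and 539 CPM in ChC and 3378, 4315, 688 and 1533 CPM in Pv, so that only Pv batch 7 lay within the ChC range. Its log2 fold change was -2.58 (SE 0.66), with an adjusted p of 0.598 in edgeR's test. Over 20 alternatives the log2 fold change lay between -3.41 and -1.51 and the adjusted p between 0.000223 and 0.889, with calls without the filter, without animal 1 (0.00537) and without animal 4 (0.000223). *Slc24a3*, of the same family, had 218 ± 58.5 CPM in ChC and 121 ± 123 CPM in Pv, and *Nptn*, a glycoprotein that partners the plasma membrane pumps, had 349.8 ± 124 and 305 ± 77.0 CPM (SD, n = 4 batches). *Atp2b3*, given above, had a log2 fold change of 4.79 (SE 1.74) with an adjusted p of 0.704 in edgeR's test and 0.0451 in DESeq2, in a range of 0.0451 to 0.9998 over 19 alternatives. Without batch 1 its log2 fold change was 2.14.

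Of 25 genes of calcium stores and mitochondrial uptake, 14 passed the filter, edgeR over animals called 0, and the median was -0.20. An unadjusted p under 0.05 in that test was found for 1 of them, beside 6.27% of all genes tested. The other 4 fits named above called 0. *Atp2a2*, the pump that fills the endoplasmic reticulum, had 867 ± 357 CPM in ChC and 1419.5 ± 811 CPM in Pv, *Itpr1*, a release channel, had 449.5 ± 226 and 439.6 ± 141 CPM, and *Canx* (calnexin) had 174 ± 42.3 and 236 ± 235 CPM (SD, n = 4 batches). *Stim2*, a sensor of store calcium, had 183 CPM in batch 2 and between 0 and 20.6 CPM in the others. *Letm1*, of the inner mitochondrial membrane, had 38.4 ± 28.4 CPM in ChC and 94.5 ± 60.7 CPM in Pv.

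Of 25 calmodulin-binding proteins and targets, 24 passed the filter, edgeR over animals called 0, and the median was -0.04. An unadjusted p under 0.05 in that test was found for 3 of them, beside 6.27% of all genes tested. Without the filter edgeR called 1 (*Camk1d*), beside 0.484% of all genes, and DESeq2, edgeR over batches and limma-voom called 0. *Camk1d*, a calmodulin-dependent kinase, had 4279, 4491, 287 and 1699 CPM in ChC and 438, 165, 822 and 174 CPM in Pv, where ChC batch 3 alone lay within the Pv range. Its log2 fold change was 2.91 (SE 0.79), with an adjusted p of 0.598 in edgeR's test. Over 20 alternatives the log2 fold change lay between 1.148 (without animal 1) and 3.68 (without animal 2) and the adjusted p between 3.99e-05 and 0.9998, with calls without the filter, without animal 2 (3.99e-05) and without animal 4 (0.0099). *Camk1*, a related kinase, had 574 CPM in batch 1 and between 4.23 and 84.6 CPM elsewhere. *Camk2n1* had 316 ± 206 CPM in ChC and 443 ± 229 CPM in Pv, and *Rcan2*, a regulator of calcineurin, had 436 ± 250.0 and 316 ± 84.6 CPM (SD, n = 4 batches).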

How the data were processed

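The study measured polyadenylated RNA of single cells by linear amplification with random tags. The authors aligned reads to mm9 with Bowtie 0.12.7, per the submitters' processing notes, and deposited UMI counts per transcript row and cell, without normalization. The 9 genes and the lists were chosen with earlier results of these data known.

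UMI were summed over the rows of a gene name and over the cells of an animal, and ChC were compared with Pv, 2 animals against 2, in edgeR 4.0.16 (filterByExpr, TMM, quasi-likelihood test, R 4.3.3) with Benjamini-Hochberg adjustment over all genes and a threshold of 0.05. On simulated counts this test called none of the changes first put in, some of about the size fitted for *Pvalb*, and part of them once larger ones were added after this was seen. Family shares were compared over 8 batches by exact permutation in Python 3.11.15, numpy 2.4.6 and pandas 2.3.3, adjusted over 5 shares. Intervals (95%, Clopper-Pearson, scipy 1.17.1) and the floor of 3 counts cover counting error only. Plots used matplotlib 3.10.9.

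Alternatives were DESeq2 1.42.0, library totals, no filter, the row with the most UMI, batches as samples, limma 3.58.1 (voom) with the animal as a random block, cells of at least 10000 UMI, thinned cells, and each animal or batch left out. Named were the 9 genes, *Gad1*, *Gad2* and *Slc32a1*, from each of 4 other lists the 3 genes of highest mean CPM and the 2 of largest absolute fold change past the filter, and for each of the 9 detected in at least 25% of cells of every batch the 3 genes most alike by Spearman correlation. Not every gene that this rule picks is described. Other genes named were chosen after their values were seen. Marker lists covered inhibitory, somatostatin and caudal ganglionic eminence interneurons, pyramidal neurons, astrocytes, oligodendrocytes, microglia and endothelial cells. Cell barcodes, reads and protein sequences were not used here.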

Additional observations from a re-analysis of the deposited data

Results flagged for a closer look

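A batch was singled out where it lay far from the 3 others of its cell type. Of 78 groups of 4 batches examined, 18 held such a batch, and chance gives about 1 in 20 for normally distributed values. These counts need not follow that share: *Necab1*, *Kcnip3*, *Atp2b3*, *Stim2* and *Camk1* were named for large fold changes, and a single UMI in 4 batches, as for *Calb2*, always stands apart. Among the calcium genes these were *Calm2* in ChC batch 1 (2228 CPM), *Atp2b2* in Pv batch 6 (633 CPM), the *Slc8a1* share in Pv batch 7 (92.6%), and the single UMI of *Calb2* in ChC batch 2 (1.59 CPM) and in Pv batch 7 (2.28 CPM).

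In ChC batch 1 the same held for *Atp2b3* (546 CPM) and *Camk1* (574 CPM), in ChC batch 2 for *Necab1* (1416 CPM) and *Stim2* (183 CPM), and in ChC batch 4 for *Kcnip4* (3708 CPM) and *Kcnip3* (91.9 CPM). In Pv batch 7 it held for *Atp2b3* (18.2 CPM).

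Summed marker lists that stood apart were those of caudal ganglionic eminence interneurons in ChC batch 4 (2131 CPM, and between 76.8 and 302 CPM in the 3 other ChC batches, with *Adarb2* at 1428, *Reln* at 411 and *Cck* at 292 CPM and the 4 other genes at 0), microglia in ChC batch 4 (58.8 CPM) and Pv batch 7 (11.4 CPM), pyramidal neurons in Pv batch 7 (282 CPM), oligodendrocytes in Pv batch 6 (258 CPM, of which *Cnp* gave 254) and somatostatin interneurons in Pv batch 8 (459 CPM). The endothelial markers lay between 11.6 and 68.3 CPM in the 8 batches and the 6 markers of inhibitory interneurons between 3675 and 9936 CPM. What sets these batches apart was not tested.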

How the results depend on the processing

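Against 0 genes called by edgeR over animals, DESeq2 called 150, edgeR without the filter 80, on batches as samples 5 and on cells thinned to 10000 UMI 1, and limma-voom on batches 6. Both fits on batches took the batches of a mouse as independent or nearly so. Leaving out animals or batches gave from 0 to 100 genes. Without animals 1 to 4 in turn these were 17, 51, 7 and 100, and 1 without batch 7. A type is left with 1 animal when its other is left out, and that animal is assumed to vary like the others. Of the 9 genes, 1 was called (*Pvalb*) by DESeq2, without the filter, by limma-voom and without animal 4 (adjusted p 0.0254, 0.0133, 0.0369 and 0.0324), and the count ranged from 0 to 1 over the animals left out and was 0 without any single batch.

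Signs of the log2 fold change turned for *Calb1* with limma-voom (-1.003) and without animal 1 (-0.78), animal 3 (-0.49) or batch 2 (-1.76), in a range of -1.76 to 6.64 (without animal 4). For *Calm2* they turned with limma-voom (0.0046) and without animal 3 (0.39), batch 2 (0.21), batch 6 (0.05) or batch 8 (0.16), in a range of -0.58 to 0.39. For *Calm3* they turned without animal 2 (0.13) or batch 8 (0.15), in a range of -1.18 to 0.15, and for *Atp2b2* without animal 1 (-0.31) or animal 4 (-0.02), in a range of -0.31 to 0.74. The *Calb1* share of *Calb1* and *Calb2* turned over animals (-0.0307 points) and without batch 7 (-0.156 points), in a range of -0.156 to 1.03 points. The 4 other shares kept their direction and stayed above the threshold under each alternative run. *Pvalb*, *Atp2b1* and *Slc8a1* kept their sign in all 20 alternatives and *Slc8a2* in the 15 in which it was fitted. By the median of cells, 2 genes did not overlap in place of 1. The cause of these changes was not tested. Depth limits the cells with a UMI: thinned to 10000 UMI, 9 of 49 ChC and 0 of 59 Pv cells held *Slc8a2*, against 28 and 4 of 63 at full depth.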

Other observations

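In the 4 other lists of calcium genes, *Camta1* and *Orai2* had batches that did not overlap between the cell types, and both were named after their values were seen. *Camta1*, a calmodulin-binding transcription activator, lay between 356 and 595 CPM in the 4 ChC batches and between 129 and 203 CPM in the 4 Pv batches. *Orai2*, a channel opened by the emptying of calcium stores, lay between 3.18 and 4.98 CPM in ChC and between 6.16 and 16.9 CPM in Pv, a contrast that rests on few molecules, since the lowest ChC batch held 2 UMI and the highest Pv batch 8. Among all genes tested, 2.62% had ChC and 1.6% had Pv higher without overlap.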
